A study of Mus musculus with 6 samples.

Results

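The tenascins, thrombospondins and periostin are secreted proteins of the extracellular matrix, and they were followed here in the caudal artery, which supplies the mouse tail. The 9 genes considered were the tenascins Tnc and Tnxb, the thrombospondins Thbs1, Thbs2, Thbs3, Thbs4 and Comp, the periostin gene Postn and the osteopontin gene Spp1. A probe set, the group of short probes that reports one transcript on an Affymetrix MOE430 2.0 chip, was a member if the platform annotation gave one of these as its only gene symbol. That rule found 12 of the 45037 probe sets that are not chip controls, and they stood for 8 of the 9 genes, out of 18193 genes with a probe set of their own. The annotation used here named no probe set for Spp1, so this gene was not analysed here. A further probe set that the annotation gives to both Thbs1 and Pald1 was left out. The genes were chosen with knowledge of this same comparison, and selected on the rise of Tnc and the differences of Thbs4 and Postn between genotypes. The values below therefore describe these genes and are not independent support for a change of the group.

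Arteries came from 4-week-old mice (postnatal day 28) of 2 genotypes, Notch3+/+, which carry the Notch receptor gene Notch3, and Notch3-/-, which lack it. Each RNA was a pool over animals: Notch3+/+ pools 1, 2 and 3 held 4, 3 and 3 mice, and every Notch3-/- pool held 4. The labels call the 3 pools of a genotype biological replicates and give no strain, sex or description of the mutant allele. On its brighter probe set Notch3 itself read 9.94 to 10.09 in the pools labelled Notch3+/+, against 5.87 to 6.51 where the label was Notch3-/-, so its transcript goes with the labels. Values are log2 expression values, on which 1 unit is a doubling, and a difference is always Notch3-/- minus Notch3+/+. Notch3-/- pool 2 stood apart from the other pools on the first principal component (39.5 against -17.1 to 5.9), which held 45.2% of the variance. For the genes named below, a difference without that pool is given where it turns the sign or moves the value by more than 1.5 times.

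Tenascins, thrombospondins, periostin and osteopontin are called matricellular proteins because they tune how cells attach to the matrix more than they bear load. Tenascin C is scarce in most resting adult tissue and is made where matrix is being built or repaired. Thrombospondins 1 and 2 form trimers, and thrombospondins 3, 4 and Comp form pentamers that bind collagens in tendon, cartilage and vessel wall. Cells read these proteins through integrins and through receptors such as CD36, CD47 and CD44.

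Of the 12 member probe sets, 11 passed the level filter (mean of 3.83 or more over the 6 arrays) and were tested in 1 limma fit over 27027 probe sets. A probe set is called here if its p, adjusted by the Benjamini-Hochberg method over all 27027, is under 0.05. One member was called, the brighter probe set of Tnc, which was higher in Notch3-/- arteries. A dissected artery holds several cell types, and in such bulk RNA fewer cells of a type and less RNA per cell cannot be told apart. Over all probe sets tested, 0.252% were called, 0.137% as higher and 0.115% as lower. An unadjusted p under 0.05 was found for 5 of the 11 members and for 11.4% of all probe sets. The members' differences had a median of 0.10, with 6 of 11 above 0, against a median of -0.01 over all probe sets.

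The genotypes did not overlap in 6 of the 11 tested members. Every Notch3-/- pool lay above every Notch3+/+ pool for Tnc, Thbs4, Postn and 1 probe set of Thbs2, and 8.43% of all probe sets showed this. Every Notch3-/- pool lay below every Notch3+/+ pool on both probe sets of Thbs1, and 7.75% of all probe sets showed this. Tnxb, Thbs3, Comp and the other two Thbs2 probe sets overlapped between genotypes. Since the members were chosen on this comparison, nothing is read from these shares.

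**Figure D1:**
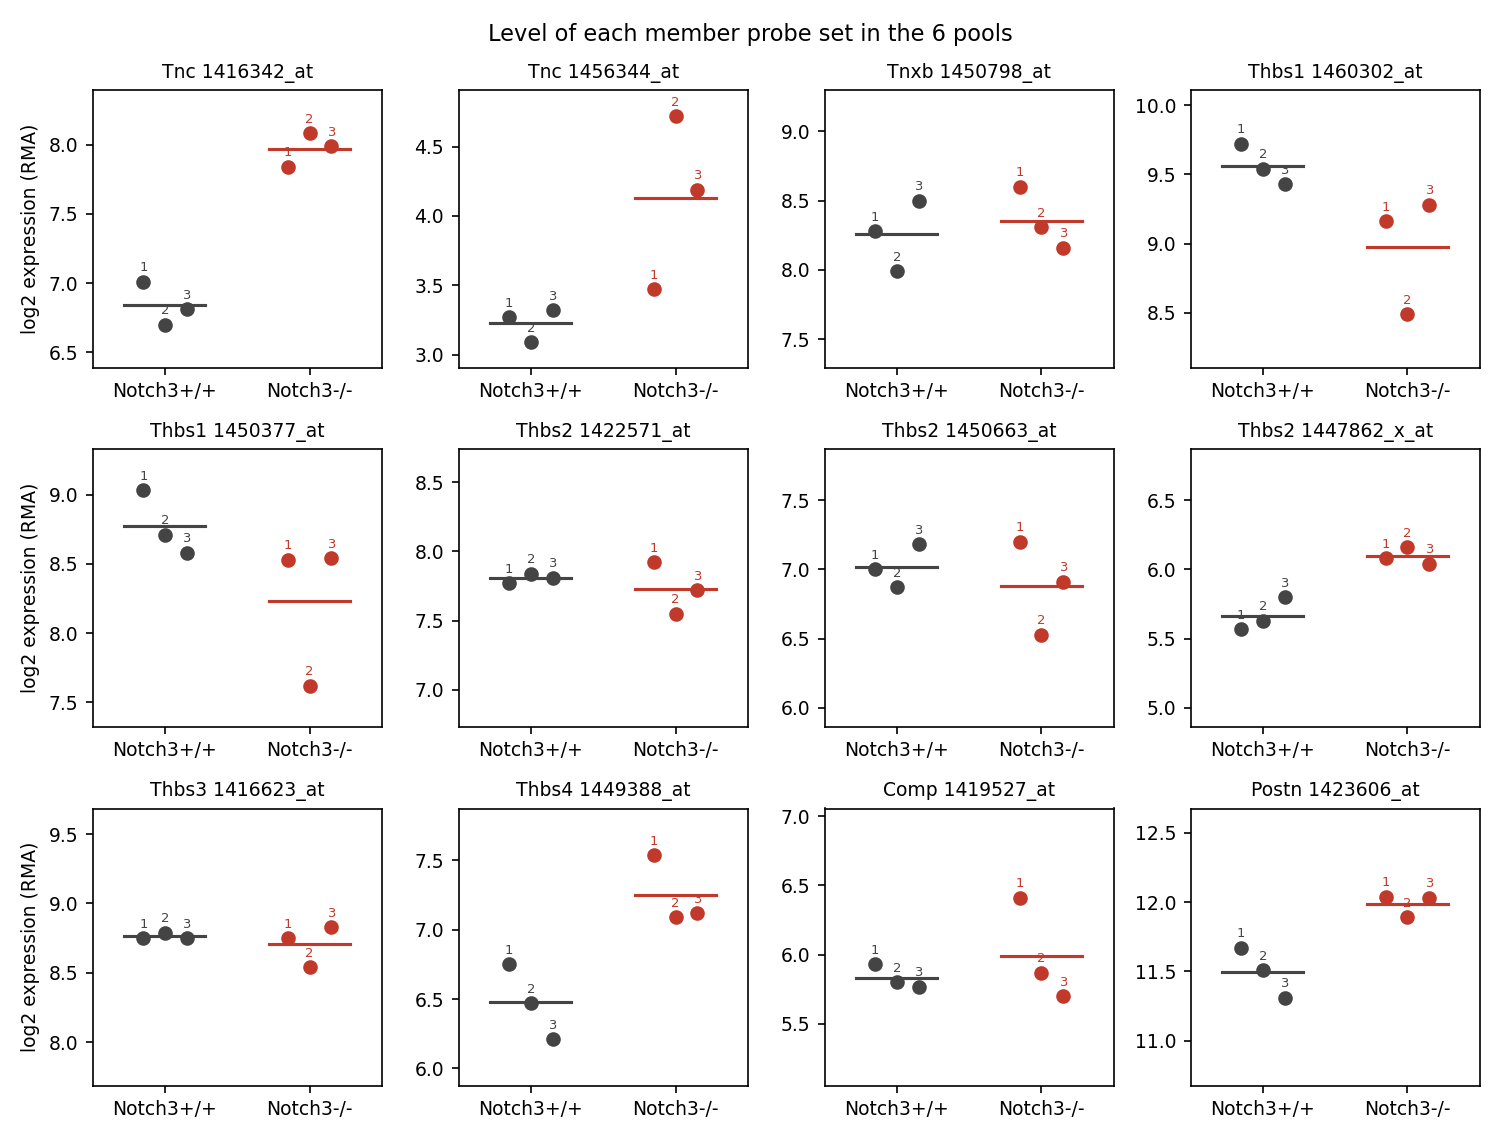
Log2 expression of each of the 12 member probe sets, with a point for each pool (numbers are pool numbers), Notch3+/+ in grey and Notch3-/- in red, and a line at each mean (n = 3). Every panel spans 2 log2 units; for Tnc (1416342_at) the Notch3+/+ pools span 6.70 to 7.01 and those of Notch3-/- arteries 7.84 to 8.08, and Notch3-/- pool 2 is the lowest pool for Thbs1 on both probe sets.

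Tnc encodes tenascin C, a large hexameric glycoprotein that loosens cell attachment to fibronectin. Its brighter probe set, 1416342_at, read 7.01, 6.70 and 6.81 in Notch3+/+ pools 1 to 3 and 7.84, 8.08 and 7.99 in Notch3-/- pools 1 to 3. The 3 Notch3-/- pools lay close together, and the lowest of them was above the highest Notch3+/+ pool by more than the whole range within either genotype. The means were 6.84 ± 0.16 and 7.97 ± 0.12 (SD, n = 3), so Tnc rose by 1.13 (SE 0.11, 95% interval 0.88 to 1.38), or 2.19-fold. The limma adjusted p was 0.00983, and by unadjusted p the probe set ranked at 27 of 27027. The call was lost without Notch3+/+ pool 2 (adjusted p = 0.0813), without Notch3+/+ pool 3 (0.0951) and without Notch3-/- pool 3 (0.0923), while the difference with any 1 pool left out stayed between 1.06 and 1.22.

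The other Tnc probe set, 1456344_at, was dim and fell below the level filter, so it was not tested. It read 3.27, 3.09 and 3.32 in Notch3+/+ and 3.47, 4.72 and 4.19 in Notch3-/- pools. All 3 Notch3-/- pools were again higher, but pool 1 by little, and the spread within Notch3-/- (SD 0.63, n = 3) was wide beside that within Notch3+/+ (SD 0.12, n = 3). With no level filter its difference of 0.90 had a limma adjusted p of 0.367.

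Promoter sequences are shown for Tnc, Thbs4 and Postn, the genes whose Notch3-/- pools all lay above the Notch3+/+ pools on a probe set other than one of the x type, which can cross-react. They are RefSeq sequences of assembly GRCm38.p6, the 250 bases before the annotated start, written 5′ to 3′ on the gene's strand, and 7 of the 9 genes had an entry. Capitals mark every match, on either strand, to TGGGAA (the core bound by RBPJ, the DNA-binding partner of Notch), GGAATG (TEAD factors), TGANTCA (AP-1), TATAAA (the TATA box) or the CArG box of serum response factor. The Tnc window starts before the first of 2 annotated starts (chr4:64047016-64047265, minus strand), the Thbs4 window before its single start (chr13:92794819-92795068, minus strand) and the Postn window before the second of 2 starts (chr3:54360857-54361106, plus strand).
Tnc: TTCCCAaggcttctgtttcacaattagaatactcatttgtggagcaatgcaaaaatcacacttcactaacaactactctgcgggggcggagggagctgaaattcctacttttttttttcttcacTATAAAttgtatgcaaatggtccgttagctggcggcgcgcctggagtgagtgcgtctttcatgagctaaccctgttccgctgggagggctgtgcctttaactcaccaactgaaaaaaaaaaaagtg
Thbs4: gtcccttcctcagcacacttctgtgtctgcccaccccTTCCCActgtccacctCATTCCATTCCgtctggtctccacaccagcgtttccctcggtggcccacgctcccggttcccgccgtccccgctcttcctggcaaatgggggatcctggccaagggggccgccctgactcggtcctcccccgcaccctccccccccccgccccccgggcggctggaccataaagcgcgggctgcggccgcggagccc
Postn: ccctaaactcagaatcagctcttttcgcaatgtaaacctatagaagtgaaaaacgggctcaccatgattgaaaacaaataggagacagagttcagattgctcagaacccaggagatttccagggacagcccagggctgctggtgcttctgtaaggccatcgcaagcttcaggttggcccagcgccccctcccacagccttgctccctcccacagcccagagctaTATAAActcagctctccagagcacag

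In the Tnc window an RBPJ core lay at -250 to -245 on the strand opposite to the gene, and a TATAAA at -126 to -121. Positions are counted back from the start, with -1 the last base before it. A second TGGGAA lay at -81 to -76 before the other Tnc start, on the strand of the gene. The Thbs4 window held an RBPJ core at -213 to -208 and a pair of TEAD motifs that share 1 base, at -197 to -192 and -192 to -187. The RBPJ core and the TEAD pair of Thbs4 were all on the strand opposite to the gene. The Postn window held TATAAA at -26 to -21, and the window of the other Postn start held none of the 5 motifs. Of the members that overlapped between genotypes, Thbs3 held an RBPJ core at -143 to -138 and Tnxb an AP-1 motif at -55 to -49. Thbs2, which overlapped on its brighter probe sets but not on 1447862_x_at, held a TATAAA at -126 to -121. The RBPJ core of Thbs3 and the TATAAA of Thbs2 lay on the strand opposite to their genes. These motifs are common: of 32851 RefSeq promoter windows of this length, 21.6% held TGGGAA, 12.6% GGAATG, 6.75% TGANTCA, 12.4% TATAAA and 1.47% a CArG box. A match describes letters in the window and says nothing of whether a factor was bound there in these arteries.

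Tnxb encodes tenascin X, a large tenascin of loose connective tissue that is associated with collagen fibrils. Its probe set, 1450798_at, read 8.28, 7.99 and 8.50 in Notch3+/+ and 8.60, 8.31 and 8.16 in Notch3-/- pools. The genotypes overlapped over most of their ranges. The difference was 0.10, with a 95% interval from -0.27 to 0.47 and a limma adjusted p of 0.833, so a change of 1 log2 unit like that of Tnc lies outside the interval. The sign turned without Notch3+/+ pool 2 (-0.03) or Notch3-/- pool 1 (-0.02). Tnxb lies on chromosome 17, as Notch3 does, with 93 protein-coding RefSeq genes between them.

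Thbs1 and Thbs2 encode the trimeric thrombospondins, which block vessel growth and, for thrombospondin 1, can activate latent TGF-beta. The brighter Thbs1 probe set, 1460302_at, read 9.72, 9.54 and 9.43 in Notch3+/+ and 9.16, 8.49 and 9.28 in Notch3-/- pools. The other, 1450377_at, read 9.03, 8.71 and 8.58 in Notch3+/+ and 8.53, 7.62 and 8.54 in Notch3-/- pools. On both, the 3 Notch3-/- pools were the lowest, and pool 2 was far below the rest, while pools 1 and 3 lay just under the lowest Notch3+/+ pool. The differences were -0.59 (95% interval -1.06 to -0.12, adjusted p = 0.357 in limma) and -0.54 (-1.13 to 0.05, adjusted p = 0.478), neither of them called. Without Notch3-/- pool 2 they were -0.34 and -0.24, which is a reduction of more than 1.5 times on each.

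The 3 Thbs2 probe sets disagreed. The brightest, 1422571_at, read 7.77, 7.84 and 7.81 in Notch3+/+ and 7.92, 7.55 and 7.72 in Notch3-/- pools, a difference of -0.08 (95% interval -0.32 to 0.17). Probe set 1450663_at read 7.00, 6.87 and 7.18 against 7.20, 6.53 and 6.91, a difference of -0.14 (-0.53 to 0.26). On both of these Notch3-/- pool 1 was the highest pool of all and pool 2 the lowest, and without pool 2 the differences were 0.01 and 0.04.

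The dimmest Thbs2 probe set, 1447862_x_at, read 5.57, 5.63 and 5.80 in Notch3+/+ and 6.08, 6.16 and 6.04 in Notch3-/- pools. All Notch3-/- pools were higher here, by 0.43 on average (95% interval 0.22 to 0.63), with a limma adjusted p of 0.167. The x in its name marks a probe set with probes that can match other transcripts, so this signal may not be Thbs2 alone. Limma adjusted p for the other two were 0.799 and 0.776. Thbs2 also lies on chromosome 17, with 338 protein-coding genes between it and Notch3.

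Thbs3, Thbs4 and Comp encode the pentameric thrombospondins. Thbs4, found in tendon, heart and vessel wall, was the one of the 3 with separate genotypes: probe set 1449388_at read 6.75, 6.47 and 6.21 in Notch3+/+ and 7.54, 7.09 and 7.12 in Notch3-/- pools. Notch3-/- pool 1 was the highest, and the lowest Notch3-/- pool exceeded the highest Notch3+/+ pool. The means were 6.48 ± 0.27 and 7.25 ± 0.25 (SD, n = 3), a difference of 0.77 (SE 0.17, 95% interval 0.38 to 1.17), or 1.71-fold. The unadjusted limma p was 0.00221, and the adjusted p of 0.185 missed the threshold.

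Thbs3, on probe set 1416623_at, read 8.75, 8.79 and 8.75 in Notch3+/+ and 8.75, 8.54 and 8.83 in Notch3-/- pools. It was level across the Notch3+/+ pools, and Notch3-/- pool 2 was the lowest. The difference was -0.06, with a 95% interval from -0.28 to 0.16 and a limma adjusted p of 0.841, and it was 0.03 without that pool. Comp, the cartilage oligomeric matrix protein, read 5.93, 5.80 and 5.77 in Notch3+/+ and 6.41, 5.87 and 5.70 in Notch3-/- pools on 1419527_at. Its difference of 0.16 (95% interval -0.25 to 0.57, adjusted p = 0.742) rested on Notch3-/- pool 1, without which it was -0.05.

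Postn encodes periostin, which is induced by TGF-beta and helps to cross-link collagen through BMP1 and lysyl oxidase. Its probe set, 1423606_at, read 11.67, 11.51 and 11.31 in Notch3+/+ and 12.04, 11.89 and 12.03 in Notch3-/- pools. All Notch3-/- pools were higher, and they varied less (SD 0.08) than the Notch3+/+ pools (SD 0.18, n = 3 each). The difference was 0.49 (SE 0.11, 95% interval 0.24 to 0.74), or 1.40-fold, with an unadjusted p of 0.00229 and a limma adjusted p of 0.187. The highest value in the file was 13.38, and differences near that end of the scale can be compressed.

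**Figure D2:**
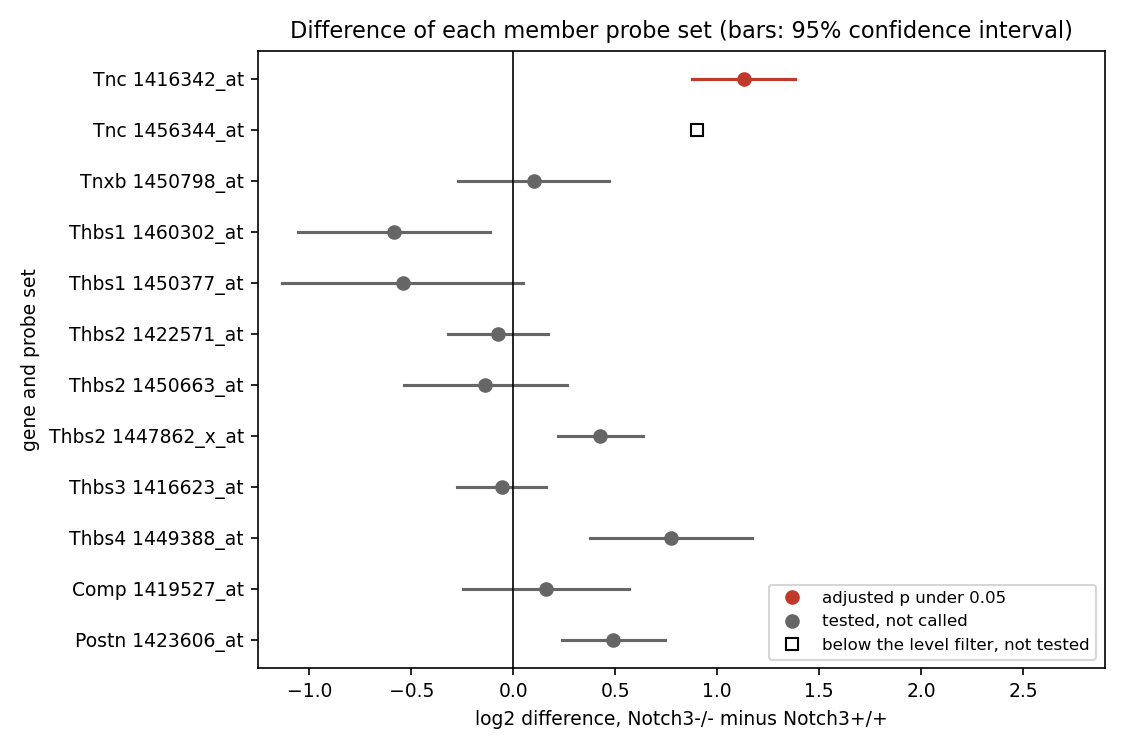
Difference between genotypes (Notch3-/- minus Notch3+/+, log2) for each member probe set with its 95% interval from limma, called members in red. Tnc (1416342_at) is at 1.13 with the interval from 0.88 to 1.38, the open square is the untested Tnc probe set, and the intervals of Tnxb, Thbs3, Comp, Thbs1 1450377_at and Thbs2 probe sets 1422571_at and 1450663_at include 0.

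The pools of a genotype differed among themselves in ways that several members shared. Notch3+/+ pool 1 was the highest Notch3+/+ pool for Tnc (1416342_at), both Thbs1 probe sets, Thbs4, Comp and Postn, and Notch3-/- pool 2 was the lowest Notch3-/- pool for both Thbs1 and both bright Thbs2 probe sets, Thbs3, Thbs4 and Postn. Tnc ran the other way in Notch3-/- pool 2, which was its highest pool on both probe sets. Notch3-/- pool 1 was the highest pool of all for Tnxb, both bright Thbs2 probe sets, Thbs4, Comp and Postn. Members share the RNA of a pool, so these patterns are over 3 samples a genotype and were not tested.

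**Figure D3:**
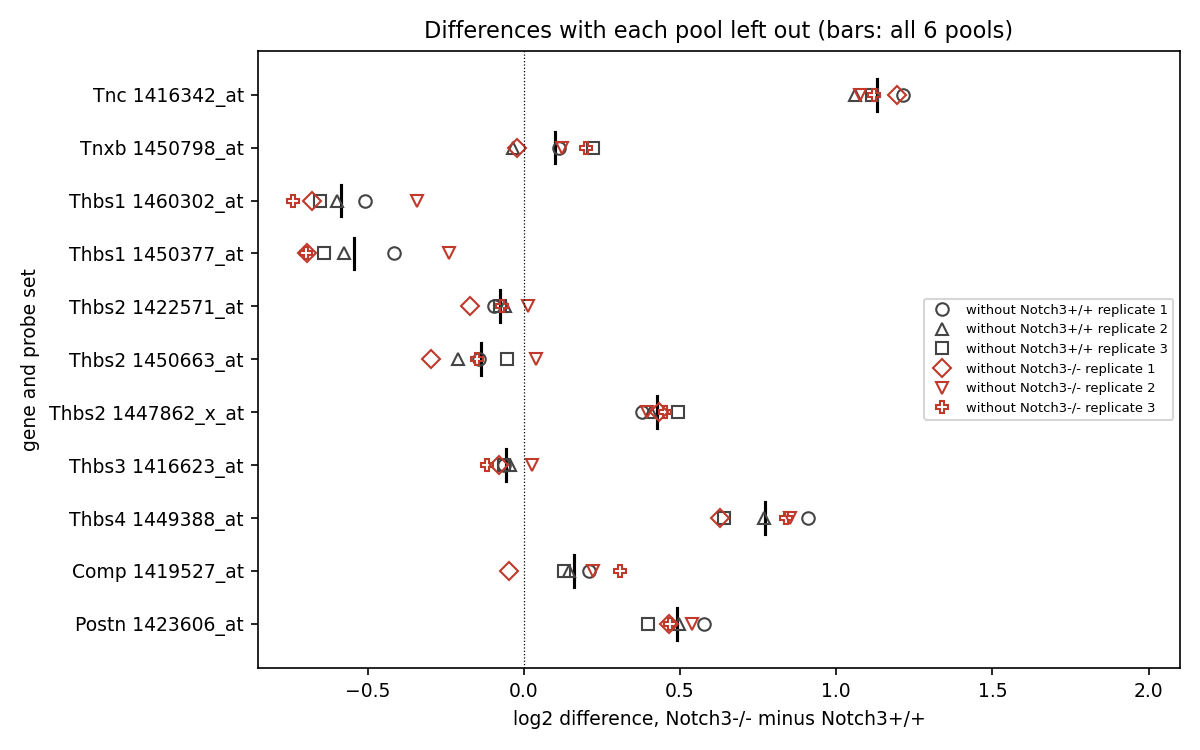
Difference between genotypes for the 11 tested member probe sets with all 6 pools (bars) and with each pool left out (symbols, grey for a Notch3+/+ and red for a Notch3-/- pool). Thbs1 moves toward 0 without Notch3-/- pool 2, to -0.34 on 1460302_at and -0.24 on 1450377_at, and Tnc stays between 1.06 and 1.22.

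Receptors through which cells bind these proteins were listed as 18 genes, 17 of which were tested on the probe set with the highest mean. On such probe sets 41 of all 12732 genes tested were called. Of the 17 receptors 1 was called, Cd44, the hyaluronan receptor that also binds osteopontin, and it was higher in Notch3-/- arteries. It read 8.24, 8.18 and 8.30 in Notch3+/+ and 8.74, 8.94 and 8.88 in Notch3-/- pools, so it rose by 0.61 (SE 0.09) with a limma adjusted p of 0.0499. Its other probe sets also differed upward, with the 3 probe sets between 0.21 and 0.61. This call sat at the threshold: leaving out any of the 6 pools gave adjusted p from 0.0579 to 0.329. Among other settings it was lost with no level filter (0.0576), with robust variances (0.0531) and with weights by mice pooled (0.0573). A block for the replicate number also lost it (0.117).

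The integrin genes among the receptors pointed both ways and none was called. Itga7, an integrin chain of muscle cells, differed by -0.40 (adjusted p = 0.240 in limma) and Itga5, part of the fibronectin receptor, by 0.42 (0.307). Cacna2d1, a calcium channel subunit that binds thrombospondins, differed by -0.31 on its brightest probe set, with its 5 tested probe sets running from -0.44 to 0.36. The list's median was -0.03, with 8 of 17 above 0, against -0.00 over the 12732 genes tested.

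Matrix partners and processing enzymes were 26 genes, 23 of them tested, and 0 were called in limma. An unadjusted p under 0.05 was found for 5, all with higher Notch3-/- means, and for 11.9% of all genes tested. Vcan, the proteoglycan versican that tenascin C binds, read 7.99, 7.73 and 7.72 in Notch3+/+ and 8.39, 8.56 and 8.44 in Notch3-/- pools. Its genotypes did not overlap, and its difference of 0.65 had an adjusted p of 0.0706. The enzyme genes Loxl1 (0.41) and Lox (0.21), which start collagen and elastin cross-linking, had limma adjusted p of 0.240 and 0.406. The collagen-binding proteoglycan gene Fmod differed by 0.41 (limma adjusted p = 0.376) on a probe set of the x type, which can cross-react. The 6 tested probe sets of Fmod ran from 0.12 to 0.41. The list's median was 0.09, with 16 of 23 above 0.

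Genes known to induce members were 23, of which 22 had a probe set and 21 were tested. In limma 0 were called and 7 had an unadjusted p under 0.05, all higher in Notch3-/- arteries. Those with the smallest p were Pdgfrb, a PDGF receptor (0.42, adjusted p = 0.138), Agtr1a, the angiotensin receptor (0.50, 0.240), Tgfb2, a TGF-beta ligand (0.63, 0.251), and Twist1, a transcription factor of mesenchyme (0.41, 0.278). The second probe set of Pdgfrb differed by -0.09, and the 4 of Tgfb2 by 0.45 to 0.70. The list's median was 0.21, with 18 of 21 above 0. Of all genes tested, 48.7% were above 0 and 11.9% had an unadjusted p under 0.05.

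A list called relatives here held 11 genes. It included Sparc, Sparcl1, Smoc1 and Smoc2, which are not of the members' families and were all tested. Of the 11 genes, 6 were below the level filter: the tenascin genes Tnn and Tnr and the osteopontin relatives Ibsp, Dmp1, Dspp and Mepe. Of the 5 tested, 0 were called in limma and 2 had an unadjusted p under 0.05. Those were Smoc2, a SPARC-related protein gene (0.36, adjusted p = 0.363), and Tgfbi, the closest relative of periostin (0.20, adjusted p = 0.423). Sparcl1 differed by -0.05 (adjusted p = 0.818) and Smoc1 by -0.12 (0.693), or -0.06 without Notch3-/- pool 2.

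**Figure D4:**
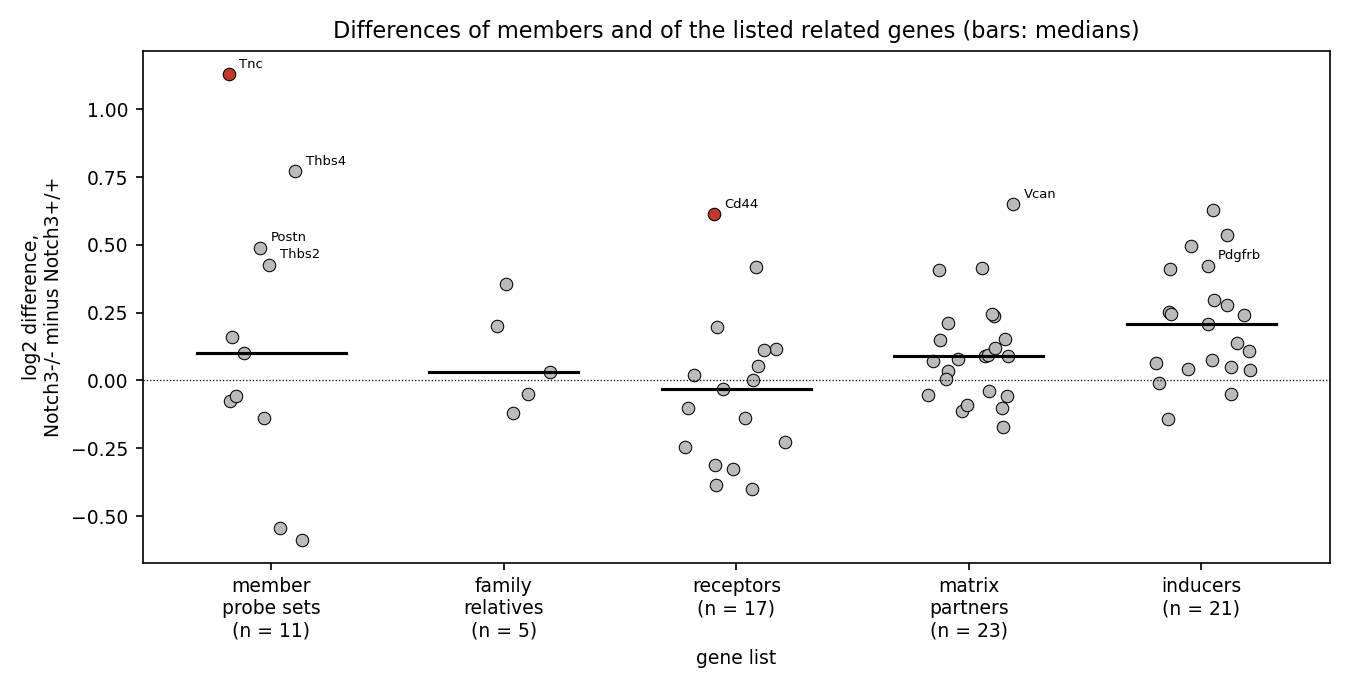
Differences between genotypes (log2) for the 11 tested member probe sets and, at 1 probe set a gene, for the tested genes of 4 lists, with called ones in red and a bar at each median. Tnc (1.13) and Cd44 (0.61) are the called points. The median is 0.10 for members, 0.03 for relatives and SPARC-related genes, -0.03 for receptors, 0.09 for matrix partners and 0.21 for inducers.

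The genes whose pattern over the 6 arrays was most like that of Tnc were taken from 12724 other tested genes by Pearson's r with 1416342_at. They were Cd34 (r = 0.995), Vcan (0.990), Epyc (0.989), Gpr176 (0.988) and Proser2 (0.988), and 94 genes had r above 0.95. Within genotypes, after each genotype's mean was removed, r was 0.87 for Cd34, 0.92 for Vcan, 0.65 for Epyc, 0.64 for Gpr176 and 0.63 for Proser2. These are descriptions over 6 arrays in 2 clusters, and the difference between genotypes sets most of each r over the 6 arrays. The genes were picked for that r, which also favours a high r within genotypes. The r within genotypes is therefore not separate evidence. For Cd34 it rests on an SD of 0.03 in Notch3+/+ and 0.02 in Notch3-/- pools. Cd34 differed by 0.22, Gpr176 by 0.50, Epyc by 0.87 and Proser2 by 0.73, and of these Epyc (adjusted p = 0.00935 in limma) and Proser2 (0.0182) were called.

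**Figure D5:**
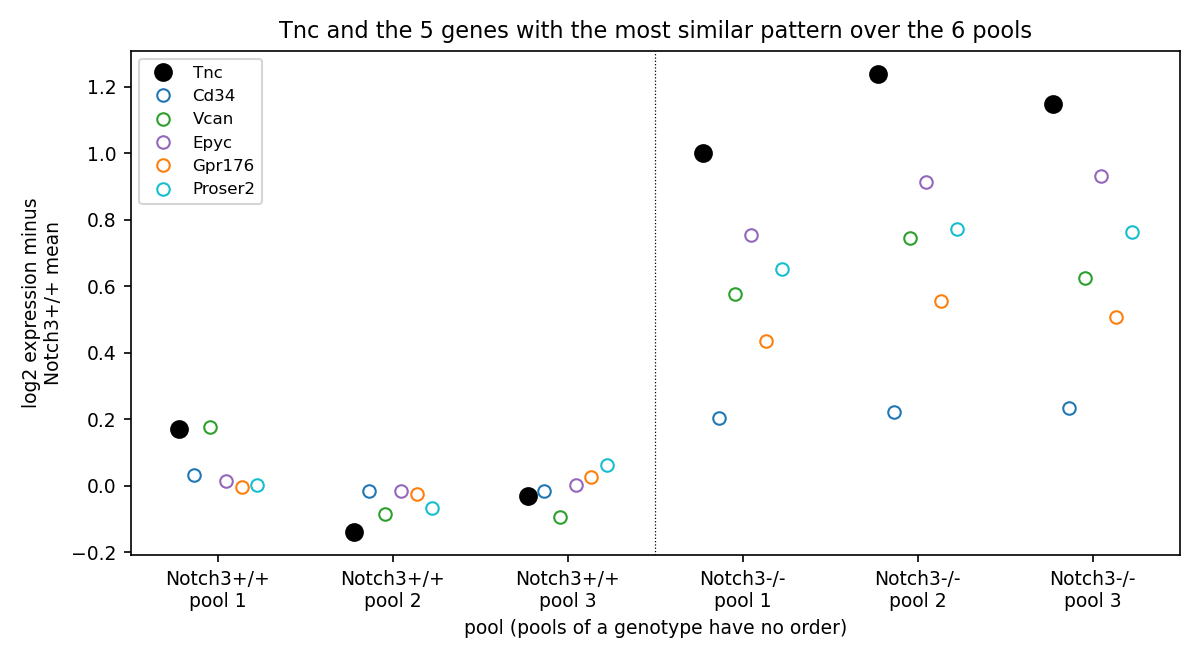
Log2 expression minus the Notch3+/+ mean, in each of the 6 pools, for Tnc (filled) and the 5 genes most correlated with it (open). All 6 genes lie near 0 in Notch3+/+ pools and above it in every Notch3-/- pool, by about as little as 0.22 for Cd34 and as much as 1.13 for Tnc on average.

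All 7 smooth muscle markers were above the filter level, with Acta2 at 13.20 and Myh11 at 12.01 in the Notch3+/+ mean. Their differences had a median of 0.04, and Cnn1 (0.51) and Smtn (-0.58) had the smallest p. The 8 adventitial fibroblast markers had differences above 0, from 0.01 for Dcn to 0.58 for Dpt, with a median of 0.19. An unadjusted p under 0.05 was found for 4 of them, and the genotypes of the other 4 overlapped. Their summed antilog level was 16728 to 18010 in Notch3+/+ pools against 18900 to 20124 without Notch3. Dpt (0.58, adjusted p = 0.0499 in limma) was called and Cd34 was not (0.327). The Dpt call sat at the threshold, as that of Cd44 did, and was not followed under other settings. Of the 6 tendon markers, Fmod (0.41) and Cilp (0.53) had an unadjusted p under 0.05, Tnmd (-0.12, or -0.07 without Notch3-/- pool 2) and Mkx (-0.04) did not, and Scx and Chad were below the filter level. The tendon sums were 2014 to 2617 in Notch3+/+ arteries against 2689 to 3029. Fmod weighs most in these sums, with a Notch3+/+ mean of 10.47 against 9.55 for Tnmd, 6.96 for Cilp and 6.20 for Mkx. The separation of the sums may therefore be that of Fmod alone, on a probe set of the x type, which can cross-react. Over the 6 tested probe sets of Fmod the differences ran from 0.12 to 0.41. Fibroblasts and tendon cells also express Tnc, Postn, Thbs4 and Comp, and the part of either in the differences of the members was not tested.

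The 8 macrophage markers had a median of 0.45, led by Cd163 (0.58) and Adgre1 (0.50), with overlapping sums of 1509 to 2489 in Notch3+/+ arteries against 2295 to 3190. The 8 mast cell markers had a median of 0.72, led by Ms4a2 (0.76) and Kit (0.61), and sums of 878 to 1860 against 1518 to 2560. The 8 endothelial markers had a median of -0.28, led by Nos3 (-0.47) and Egfl7 (-0.27), and sums of 3928 to 4412 against 3041 to 3611, which did not overlap. Platelets store thrombospondin 1, and of 5 platelet and megakaryocyte markers Pf4 differed by 0.46 and Ppbp by -0.46, with a median of -0.08. Skeletal muscle (median -0.41, led by Pygm at -0.54 and Tcap at -0.60), adipocyte (-0.23, Plin4 at -0.38 and Cidea at -0.23) and cartilage markers (-0.07, Col2a1 at 0.17 and Sox9 at -0.14) had medians below 0. The 2 tested bone markers, Alpl (0.56) and Sp7 (0.05, or 0.07 without Notch3-/- pool 2), and the 3 tested keratinocyte markers, led by Krt5 (0.20) and Lor (0.16), had differences above 0. The 2 tested Schwann cell markers, Sox10 (-0.18) and S100b (0.14), pointed both ways. Over these 10 lists limma called 0 of 52 genes tested, each at the probe set of highest mean. An unadjusted p under 0.05 was found for 20 of the 52, 10 higher and 10 lower in Notch3-/- arteries, and for 11.9% of all genes tested. Another probe set of the macrophage gene C1qb was called in limma, with a difference of 1.07 (adjusted p = 0.0227), and the 3 probe sets of C1qb ran from 0.54 to 1.07. The part of these cells in the members' differences was not tested.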

How the data were processed

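Expression in caudal arteries was measured on 6 MOE430 2.0 Affymetrix arrays, 3 pools per genotype. The authors deposited 1 log2 expression value per probe set and array, for which the submitters' processing notes name RMA. The scale follows from their range of 1.38 to 13.38. The sources used here do not name RMA's version or the chip definition, and background and detection could not be examined.

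Of 45101 probe sets, 64 chip controls were left out. The platform annotation gave 34945 probe sets 1 gene, and 34741 of these were matched by gene number to RefSeq names of GRCm38.p6, used for names, gene order and promoters. Probe sets with a mean under the 40th percentile (3.83) were left out, which left 27027. Genotypes were compared with limma 3.58.1 in R 4.3.3 (lmFit, eBayes, genotype as the only term, two-sided, Benjamini-Hochberg over 27027). The fit was tested on simulated data. For counts per gene the probe set with the highest mean stood for each gene. Arrays of a genotype are treated as replicates, so p-values weigh the difference between genotypes against the spread between pools. The spread between single mice was not measured.

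The members, the gene lists and the naming rule were chosen with earlier results of these data known. The rule named every member probe set, called genes and the 4 smallest unadjusted p of each list, the first 2 of each marker list, and the 5 genes most like Tnc. Alternatives varied the filter, variance model, normalization, array weights, a replicate block, the threshold and the pools included.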

Additional observations from a re-analysis of the deposited data

How the results depend on the processing

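Tnc (1416342_at) stayed called under all 9 other settings of the fit, with adjusted p from 0.000704 to 0.0461, and in 3 of 6 fits with a pool left out (adjusted p 0.0227 to 0.0951). The same-numbered pools deviated together at r = 0.24, 0.05 and -0.07. With 3 pools a genotype, these values cannot tell whether the numbers pair the pools. With the replicate number as a block, 57 probe sets were called, 1 of them a member and 0 of them receptors, and Tnc had an adjusted p of 0.0461 and Cd44, no longer called, of 0.117. Array weights changed the calls most: 978 probe sets (606 higher, 372 lower, against 37 and 31), 4 members (Tnc, Thbs4 at 0.71, Postn at 0.52 and Thbs2 1447862_x_at at 0.40), 2 relatives, 4 receptors, 6 matrix partners and 6 inducers; the cause was not tested. An adjusted p under 0.10 gave 142 probe sets and 1 matrix partner. The receptor call was lost (0) with no level filter, robust variances and weights by mice pooled. With 1 pool left out, 13 to 62 probe sets, 0 to 1 members and 0 receptors were called; the counts were 13 without Notch3+/+ pool 2, 17 without Notch3-/- pool 3, 23 without Notch3+/+ pool 3 and 37 without Notch3-/- pool 2. By gene, 41 were called on the brightest probe set and 52 on any.

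Sign turned for 5 member probe sets with differences near 0. Thbs3 read 0.0205 with array weights and ran from -0.118 to 0.0267 with a pool left out, Comp from -0.0483 to 0.307, Thbs2 from -0.172 to 0.0133 (1422571_at) and -0.297 to 0.0383 (1450663_at), and Tnxb from -0.0333 to 0.222. The other 6 tested member probe sets kept their sign under every setting run. Only 3 arrays per genotype limit all values.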
